A study of Homo sapiens with 6 samples.

Results

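The AU-rich element binding proteins examined here are 9 genes, taken by symbol from the 60589 genes of the deposited table: ZFP36, ZFP36L1, ZFP36L2, ZC3H12A, KHSRP, HNRNPD, ELAVL1, TIA1 and TIAL1. RNA was sequenced from SNU449 cells, a human liver tumor cell line, collected on day 3 after treatment with an siRNA against MAD2L1 (siMAD2L1, 3 libraries) or with a control siRNA (siControl, 3 libraries). MAD2L1 is a spindle checkpoint protein, and the question was its role in hepatocellular carcinoma. All libraries come from 1 cell line, and the labels do not say whether the numbered libraries are separate cultures, so every p-value here rests on library-to-library spread, which may be technical. One label field disagrees with the titles: in siMAD2L1 replicate 2 it gives MAD2L2 and in replicate 3 MAD2L3 as the target. Values for replicate 1 alone are therefore given beside the called members.

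AU-rich elements are stretches of A and U in the 3′ untranslated region (3′ UTR) of many short-lived mRNAs, such as those of cytokines and immediate early genes. Proteins that bind them set how long such an mRNA lasts and how well it is translated. ZFP36 and its relatives bring in the enzymes that remove the poly(A) tail, ELAVL1 protects the mRNA, and TIA1 and TIAL1 hold back its translation and gather in stress granules.

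The targeted transcript fell: MAD2L1 measured 4.47, 0.795 and 2.40 TPM in siMAD2L1, against 14.5, 13.7 and 13.9 TPM in siControl (log2 fold change -2.22, limma adjusted p = 0.0105). MAD2L1 was lower in siMAD2L1 replicates 2 and 3, those with the differing label, than in replicate 1. Its limma adjusted p was 0.0531 without siControl replicate 1 and 0.0513 without siControl replicate 3. TPM is an abundance scaled for transcript length and library size, so the depth in reads is unknown. Genes above 0 numbered 22514 to 23630 in siMAD2L1 libraries and 24056 to 24258 in siControl libraries, and mitochondrial transcripts took 9.21% to 10.9% of the TPM in siMAD2L1 and 15.2% to 15.3% in siControl. The liver label was checked against 10 hepatocyte markers, of which 6 lay under a mean of 1 TPM, with APOB and TTR at 0 in every library. Their summed level was 10.2 to 16.2 TPM in siMAD2L1 and 18.3 to 19.7 TPM in siControl. Of the 4 hepatocyte markers tested 1 passed, FGB, which was lower (2.77 TPM in siMAD2L1 and 7.42 TPM in siControl, limma adjusted p = 0.0142). The epithelial keratins KRT8 (163 TPM in siMAD2L1 and 222 TPM in siControl) and KRT18 (133 and 194 TPM) were present. Both keratins passed as lower in siMAD2L1 (limma adjusted p = 0.0101 and 0.00661), and EPCAM was under 1 TPM. Of 5 mesenchymal markers 1 passed, the collagen COL1A2, which was lower (232 TPM in siMAD2L1 and 389 TPM in siControl), and the list median log2 fold change was -0.11. COL1A1 averaged 97.6 TPM in siMAD2L1 and 133 TPM in siControl, and VIM 10800 TPM in siMAD2L1 and 9490 TPM in siControl. Summed epithelial markers were 278 to 308 TPM in siMAD2L1 and 410 to 425 TPM in siControl, and summed mesenchymal markers, mostly VIM, 11100 to 11700 TPM in siMAD2L1 and 9800 to 10700 TPM in siControl. All 3 endothelial markers lay under 1 TPM, with sums of 0.080 to 0.154 TPM in siMAD2L1 and 0.121 to 1.08 TPM in siControl. The part of these shifts in the results was not tested.

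Of the 9 binding proteins, ZFP36 and ZFP36L1 rose in siMAD2L1 and TIA1 fell. A call is an adjusted p under 0.05 in limma over all 14790 genes with a mean of at least 1 TPM, and all 9 passed that filter. Among all tested genes 9.78% were called, 3.55% higher and 6.23% lower, beside 2 higher and 1 lower of the 9. An unadjusted p under 0.05 was found for 7 of the 9, beside 26.3% of all tested genes. This count was 5 with upper-quartile scaling or a transcript-length trend removed, and 4 without siControl replicate 1. Of all calls 63.7% were lower; this share was 50.5% with quantile normalization, 43.5% with a transcript-length trend removed, and 52.5% with upper-quartile scaling. The 3 called members kept their call and direction under each of these scalings. The siMAD2L1 and siControl values did not overlap for 7 of the 9, with 3 above and 4 below siControl, beside 32.8% of all tested genes (11.3% above and 21.5% below). The median log2 fold change of the 9 was -0.14, beside -0.08 over all tested genes. In bulk RNA, fewer cells of a type and less RNA per cell cannot be told apart.

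**Figure D1:**
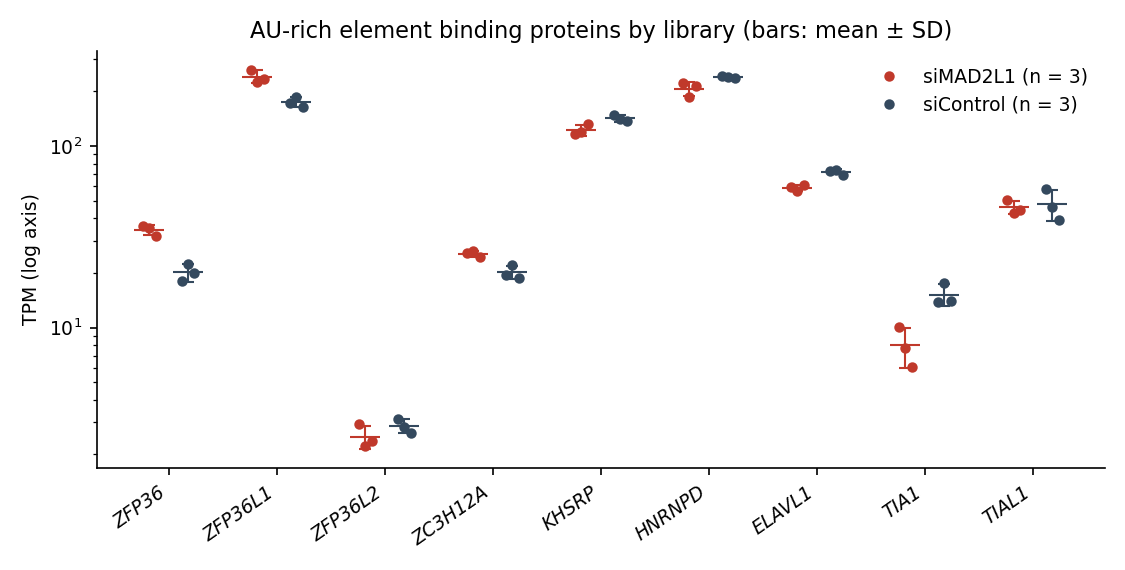
TPM (log axis) of each AU-rich element binding protein in 3 siMAD2L1 libraries (red) and 3 siControl libraries (dark), with mean ± SD. ZFP36 sits at 32.0 to 36.2 TPM in siMAD2L1, above every siControl library, and TIA1 at 6.07 to 10.1 TPM, below every siControl library.

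ZFP36, also known as tristetraprolin, binds the core AU-rich sequence with paired CCCH zinc fingers and marks the mRNA for decay. It maps to chr19:39406813-39409412 on the plus strand (GRCh38). It measured 36.2, 35.5 and 32.0 TPM in siMAD2L1, against 18, 22.5 and 19.9 TPM in siControl. Every siMAD2L1 library lay well above every siControl library. The mean of 34.6 ± 2.20 TPM was 171% of the siControl mean of 20.1 ± 2.24 TPM (SD, n = 3 each; log2 fold change 0.75, SE 0.113, limma adjusted p = 0.00818; exact permutation p = 0.1, the smallest that 3 against 3 allows). In size this change stood at the 93.0 percentile of all tested genes. Leaving out each library in turn kept the call in 6 of 6 fits (log2 fold changes from 0.68 to 0.83, highest limma adjusted p = 0.0477). Replicate 1 alone gave 0.82 (limma adjusted p = 0.0440); in such a fit the siControl libraries alone give the spread, and the lone library is assumed to vary as they do.

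ZFP36L1, a relative with the same kind of zinc fingers and the same decay function, maps to chr14:68787660-68796253 on the minus strand. It measured 263, 226 and 233 TPM in siMAD2L1, against 173, 186 and 164 TPM in siControl. The groups did not overlap, and replicate 1 was the highest of the siMAD2L1 libraries. The means were 241 ± 19.9 and 174 ± 11.1 TPM (SD, n = 3 each; log2 fold change 0.46, SE 0.0863, limma adjusted p = 0.0172; exact permutation p = 0.1). The limma adjusted p was 0.0833 without siControl replicate 1, 0.0797 without siControl replicate 3 and 0.0539 without siMAD2L1 replicate 3, so the call was lost in these fits, at log2 fold changes of 0.46, 0.42 and 0.49. Replicate 1 alone gave 0.60 (limma adjusted p = 0.0350, with the spread of siControl only).

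ZFP36L2, the other family member (chr2:43222402-43226609, minus strand), was scarce, with 2.94, 2.24 and 2.36 TPM in siMAD2L1 and 3.13, 2.84 and 2.64 TPM in siControl. Its groups overlapped and it did not pass (log2 fold change -0.14, 95% interval -0.57 to 0.28, limma adjusted p = 0.663); whether it differs from its relatives in response was not tested. The 3 genes together summed to 302, 264 and 267 TPM in siMAD2L1, against 194, 211 and 186 TPM in siControl. ZFP36L1 made up 86.6% ± 0.798 of this sum in siMAD2L1 and 88.3% ± 0.665 in siControl (SD, n = 3 each). ZFP36L1 was thus the most abundant of the family in both groups.

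All 3 family members, and ELAVL1, hold the 9-base core TTATTTATT once in the longest annotated 3′ UTR (GENCODE 29, GRCh38), which is the sequence that ZFP36 proteins themselves recognise. The sense strand of the UTR was searched. The stretches are shown because these binding proteins carry the same letters in their own mRNAs; capitals mark the 9-base core, and T stands for U in the RNA.
ZFP36 (chr19:39409196-39409225, plus strand): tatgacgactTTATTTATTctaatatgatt
ZFP36L1 (chr14:68788076-68788105, minus strand): aactgttggaTTATTTATTttagaaattcc
ZFP36L2 (chr2:43223447-43223476, minus strand): actatttaacTTATTTATTatcttgtgaaa
ELAVL1 (chr19:7961827-7961856, minus strand): atttatgtatTTATTTATTgaagtgtgaaa
The core occurs in 9.21% of the 11904 tested genes with an annotated 3′ UTR. TIA1 and TIAL1 hold the shorter core TATTTAT once each, which lies inside the 9-base core and occurs in 34.7% of those genes. KHSRP, HNRNPD and ZC3H12A hold neither in the UTR that was searched. Both binding proteins that rose hold the 9-base core, and so do ZFP36L2 and ELAVL1, which did not pass; a match is a description and does not show binding.

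ZC3H12A, also known as Regnase-1 (chr1:37474552-37484379, plus strand), is an endonuclease that cuts stem-loops in the 3′ UTRs of inflammatory mRNAs. It measured 25.6, 26.4 and 24.4 TPM in siMAD2L1, against 19.5, 22.1 and 18.8 TPM in siControl. The siMAD2L1 values lay above siControl without overlap, at means of 25.5 ± 1.00 and 20.2 ± 1.75 TPM (SD, n = 3 each). The difference did not pass over all genes (log2 fold change 0.33, 95% interval 0.08 to 0.57, limma adjusted p = 0.0922). It passed with a transcript-length trend removed (0.43, limma adjusted p = 0.0397) and with library weights (0.31, limma adjusted p = 0.0191). In the other 15 of 17 alternatives it did not pass. With 1 library left out the highest limma adjusted p was 0.271, without siControl replicate 1.

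ELAVL1, or HuR (chr19:7958579-8005659, minus strand), stabilises AU-rich mRNAs and so works against the ZFP36 family. It measured 59.2, 56.5 and 60.6 TPM in siMAD2L1, against 73.2, 73.9 and 69.4 TPM in siControl. All siMAD2L1 libraries lay below siControl, and the gap between the groups was wider than the SD of either. The means were 58.8 ± 2.10 and 72.2 ± 2.39 TPM (SD, n = 3 each; log2 fold change -0.29, 95% interval -0.47 to -0.11), and the limma adjusted p of 0.0534 missed the threshold. The call depended on the scaling. TPM rescaled over protein-coding genes gave -0.30 (limma adjusted p = 0.0401) and rescaled without mitochondrial and the 20 highest genes -0.34 (limma adjusted p = 0.0355), while upper-quartile scaling gave -0.24 (limma adjusted p = 0.111). It also passed without siMAD2L1 replicate 1 (limma adjusted p = 0.0381), with a filter at 5 TPM (limma adjusted p = 0.0422) and with library weights (limma adjusted p = 0.00943). In 12 of the 17 alternatives it did not pass. The limma adjusted p was 0.0814 with quantile normalization, 0.111 with the replicate block and 0.177 with a transcript-length trend removed. Without siControl replicate 1 it was 0.198.

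KHSRP (chr19:6413348-6424794, minus strand), a KH-domain protein that promotes decay of AU-rich mRNAs, measured 117, 119 and 132 TPM in siMAD2L1, against 148, 140 and 137 TPM in siControl. HNRNPD, or AUF1 (chr4:82352498-82374503, minus strand), whose isoforms can shorten or lengthen mRNA life, measured 221, 185 and 213 TPM in siMAD2L1, against 242, 241 and 237 TPM in siControl. In both genes every siMAD2L1 library lay below every siControl library, but by a margin that did not pass: KHSRP at a log2 fold change of -0.21 (95% interval -0.40 to -0.03, limma adjusted p = 0.130) and HNRNPD at -0.22 (95% interval -0.41 to -0.03, limma adjusted p = 0.134). HNRNPD passed with library weights (-0.20, limma adjusted p = 0.0280). An antisense gene, HNRNPD-DT, overlaps HNRNPD and measured 0.972, 2.32 and 1.82 TPM in siMAD2L1, against 2.13, 0.217 and 1.33 TPM in siControl; since the strand setting is not stated, their reads cannot be told apart.

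TIA1, which silences translation of AU-rich mRNAs and also acts in splicing, maps to chr2:70209444-70248660 on the minus strand. It measured 10.1, 7.76 and 6.07 TPM in siMAD2L1, against 13.9, 17.6 and 14 TPM in siControl. The groups did not overlap, and replicate 1 was the nearest of the siMAD2L1 libraries to siControl. The mean of 7.97 ± 2.02 TPM was 52.5% of the siControl mean of 15.2 ± 2.13 TPM (SD, n = 3 each; log2 fold change -0.87, SE 0.189, limma adjusted p = 0.0294; exact permutation p = 0.1). This was the largest change among the 9, at the 95.5 percentile of all tested genes by size. Leaving out each library in turn ended the call in 5 of 6 fits, at log2 fold changes between -0.92 and -0.71. The limma adjusted p was then 0.0718 and 0.0810 without siMAD2L1 replicate 2 or 3, and 0.0865, 0.107 and 0.0896 without siControl replicate 1, 2 or 3. The call held without siMAD2L1 replicate 1 (-1.03, limma adjusted p = 0.00954). Replicate 1 alone gave -0.54 (limma adjusted p = 0.126, with the spread of siControl only). The gene C2orf42 overlaps TIA1 on the same strand and measured 6.29, 5.31 and 4.36 TPM in siMAD2L1, against 5.54, 5.61 and 5.05 TPM in siControl, so reads in the shared stretch are uncertain.

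TIAL1, or TIAR (chr10:119571802-119597029, minus strand), the close relative of TIA1, measured 50.3, 43.0 and 44.5 TPM in siMAD2L1, against 57.7, 46.3 and 39.3 TPM in siControl. The groups overlapped and the siControl libraries were the more spread (log2 fold change -0.04, 95% interval -0.37 to 0.29, limma adjusted p = 0.887). TIA1 stood at 0.201, 0.180 and 0.136 of the TIAL1 TPM in siMAD2L1, against 0.240, 0.381 and 0.357 in siControl. These ratios did not overlap, and siControl replicate 1 was the nearest to siMAD2L1.

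**Figure D2:**
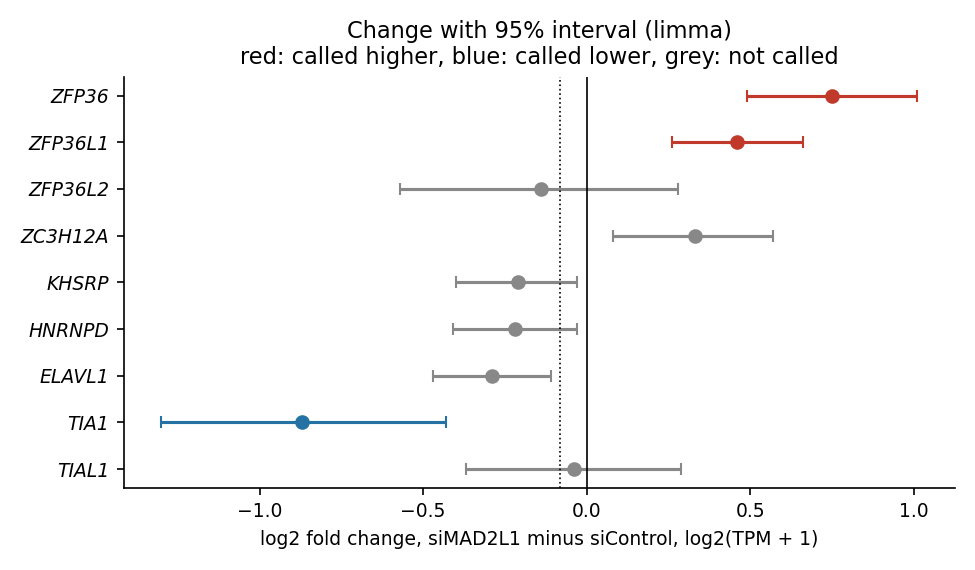
Log2 fold change of each binding protein, siMAD2L1 minus siControl on the log2(TPM + 1) scale, with its 95% interval from limma; the dotted line is the median of all tested genes. ZFP36 (0.75) and ZFP36L1 (0.46) are called higher and TIA1 (-0.87) lower.

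In order of level, siMAD2L1 ran ZFP36L1, HNRNPD, KHSRP, ELAVL1, TIAL1, ZFP36, ZC3H12A, TIA1 and ZFP36L2, from 241 to 2.51 TPM, with no overlap between neighbours across the 3 libraries. In siControl HNRNPD came first (240 TPM) and ZFP36L1 second (174 TPM), and ZC3H12A (18.8 to 22.1 TPM) and ZFP36 (18 to 22.5 TPM) overlapped as neighbours. ZFP36L1 and HNRNPD thus stood in opposite order in the 2 groups. The 9 genes summed to 785, 702 and 747 TPM in siMAD2L1 and 748, 753 and 703 TPM in siControl, so their total overlapped while its makeup differed.

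Decay-promoting members can be set against the stabilising ELAVL1 within each library, where a single scaling factor for the library cancels. The ratio of ZFP36 to ELAVL1 TPM was 0.611, 0.628 and 0.529 in siMAD2L1, against 0.246, 0.304 and 0.287 in siControl. That of ZFP36L1 to ELAVL1 was 4.45, 4 and 3.83 in siMAD2L1, against 2.36, 2.52 and 2.36 in siControl. Neither ratio overlapped between the groups, and the mean ratios were 2.11-fold and 1.70-fold higher in siMAD2L1, but ZFP36 and ZFP36L1 are the members called higher. The ratio of KHSRP to ELAVL1 was 1.98, 2.10 and 2.17 in siMAD2L1, against 2.03, 1.90 and 1.98 in siControl. That of ZFP36L2 to ELAVL1 was 0.0496, 0.0397 and 0.0389 in siMAD2L1, against 0.0428, 0.0384 and 0.0381 in siControl. These last ratios overlapped between the groups, so the difference was not seen in every decay-promoting member. These ratios of mRNA say nothing of protein amount or phosphorylation, which also set the activity of ZFP36.

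**Figure D3:**
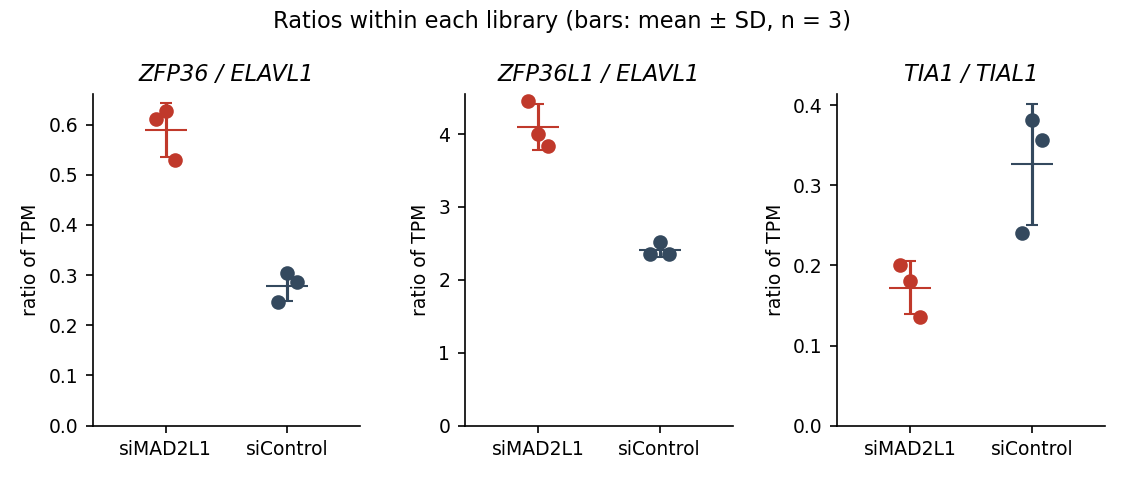
Ratio of TPM within each library for ZFP36 to ELAVL1, ZFP36L1 to ELAVL1 and TIA1 to TIAL1 (points: libraries; bars: mean ± SD, n = 3; axes start at 0). The first ratio sits at 0.529 to 0.628 in siMAD2L1 and 0.246 to 0.304 in siControl, and the last at 0.136 to 0.201 and 0.240 to 0.381.

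With log2(TPM + 1) taken minus each gene's own siControl mean, profiles over the 6 libraries were compared by root mean square distance. The tested genes nearest to each called member are named. For ZFP36 they were RNF19B (0.0496), ASL (0.0660) and LINC02575 (0.0667). RNF19B, a ubiquitin ligase gene, averaged 41.2 TPM in siMAD2L1 and 23.4 TPM in siControl. For ZFP36L1 they were SFRP1 (0.0336), GPR137B (0.0391) and C3orf52 (0.0415), and for TIA1 S1PR5 (0.0845), SLC10A7 (0.0908) and CACNA1A (0.0960). S1PR5 averaged 0.523 TPM in siMAD2L1 and 1.76 TPM in siControl, and SLC10A7 0.615 and 1.89 TPM. Both lie near the floor, where the log2(TPM + 1) scale understates a change.

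Of 12 listed relatives 7 were tested, and 1 fell: FUBP1, a KH-domain relative of KHSRP, with 23.4, 15.8 and 19.7 TPM in siMAD2L1, against 30.7, 33.1 and 31.4 TPM in siControl (log2 fold change -0.68, limma adjusted p = 0.0252). Leaving out each library in turn ended its call in 4 of 6 fits (highest adjusted p in limma 0.0937, without siControl replicate 2). Beside the 1 of 7, 6.23% of all tested genes fell. The neuronal ELAV genes ELAVL2, ELAVL3 and ELAVL4 averaged under 1 TPM, and ZC3H12B and ZC3H12D also lay under 1 TPM.

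Of 29 deadenylation and decapping genes, all tested, 1 passed the test, beside 9.78% of all tested genes. The list median log2 fold change was -0.10. The median depended on the siMAD2L1 library: it was -0.22 without replicate 1, -0.03 without replicate 2, -0.04 without replicate 3 and 0.20 in replicate 1 alone, and it was also -0.04 without siControl replicate 2. With library weights 1 of the 29 was called higher and 7 lower, beside 1514 higher and 3346 lower of all 14790 tested genes. The gene that passed was BTG1, an antiproliferative protein that binds the CCR4-NOT deadenylases, with 105, 102 and 80.4 TPM in siMAD2L1, against 53.2, 48.8 and 40.7 TPM in siControl (log2 fold change 0.99, limma adjusted p = 0.00623). All its siMAD2L1 values lay above siControl, and leaving out any 1 library kept the call. Of 15 RNA exosome genes 1 fell, the cap subunit EXOSC2 (22.2 ± 1.83 TPM in siMAD2L1 and 30.6 ± 2.37 TPM in siControl, SD, n = 3 each; log2 fold change -0.45, limma adjusted p = 0.0424), at a list median of -0.18. Leaving out each library in turn ended this call in 5 of 6 fits (highest adjusted p in limma 0.172, without siControl replicate 1). Beside the 1 of 15 exosome genes, 6.23% of all tested genes fell.

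The kinase p38 and its partner MK2 phosphorylate ZFP36, after which 14-3-3 proteins hold it inactive and phosphatase 2A reverses the mark. Of 18 genes of this kind 2 rose and 2 fell, beside 3.55% and 6.23% of all tested genes. The list median log2 fold change was 0.03, but -0.01 with quantile normalization. It was -0.02 without mitochondrial and the 20 highest genes or without siMAD2L1 replicate 1. MAP2K6, a kinase that activates p38, fell to 1.75, 1.77 and 1.46 TPM in siMAD2L1, against 6.44, 6.71 and 7.5 TPM in siControl (log2 fold change -1.57, limma adjusted p = 0.00239), and leaving out any 1 library kept the call. The kinases MK2 and p38 alpha did not pass: MAPKAPK2, which encodes MK2, averaged 90.1 ± 1.30 TPM in siMAD2L1 and 84.3 ± 4.84 TPM in siControl (SD, n = 3 each; limma adjusted p = 0.467), and MAPK14, which encodes p38 alpha, 15.6 ± 2.35 and 17.9 ± 1.55 TPM (limma adjusted p = 0.414). Both were named after their values were seen.

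Among the 14-3-3 genes, SFN rose to 8.08, 10.2 and 9.69 TPM in siMAD2L1, against 2.52, 4.50 and 1.09 TPM in siControl (log2 fold change 1.58, limma adjusted p = 0.0244). YWHAG rose (0.42, limma adjusted p = 0.0482) and YWHAQ fell (-0.45, limma adjusted p = 0.0153). Leaving out each library in turn ended each of these 3 calls in 4 of 6 fits. The highest limma adjusted p was 0.0844 for SFN and 0.0840 for YWHAQ, both without siControl replicate 1, and 0.158 for YWHAG, without siControl replicate 3.

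Of 6 ELAVL1 export and import partners 1 fell, TNPO2 (20.8 ± 1.76 TPM in siMAD2L1 and 28.2 ± 2.04 TPM in siControl, SD, n = 3 each; log2 fold change -0.42, limma adjusted p = 0.0484), and that call was lost whichever library was left out (highest adjusted p 0.168, without siControl replicate 1). Beside the 1 of 6, 6.23% of all tested genes were called lower. Over the list the median was -0.33, and 3 of the 6 lay below siControl without overlap, beside 21.5% of all tested genes. Without siMAD2L1 replicate 1, 4 of the 6 were called lower, beside 1701 of all 14834 genes tested in that fit. With library weights 5 were called lower, beside 3346 of 14790. With upper-quartile scaling, with a transcript-length trend removed or with the replicate block 0 of the 6 were called. Of all genes, these fits called 715 of 14780, 631 of 14363 and 532 of 14790 lower. The list count was also 0 when any library other than siMAD2L1 replicate 1 was left out. Such fits called from 209 of 14727 genes lower (without siControl replicate 1) to 507 of 14893 (without siMAD2L1 replicate 2). In siMAD2L1 replicate 1 alone the list median was -0.06. Of 15 stress granule partners of TIA1 and TIAL1, 1 fell: EIF4G1, the scaffold of the cap-binding complex, with 100, 101 and 110 TPM in siMAD2L1, against 146, 149 and 171 TPM in siControl (log2 fold change -0.58, limma adjusted p = 0.00817). The others did not pass, at a list median of -0.03 (0.03 after removal of a transcript-length trend, and 0.02 with upper-quartile scaling or without siMAD2L1 replicate 2). This median was -0.15 without siMAD2L1 replicate 1 and 0.17 in that replicate alone. Beside the 1 of 15 stress granule partners, 6.23% of all tested genes fell.

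Of 35 mRNAs listed as AU-rich or bound by these proteins, 31 were tested, and 13 rose and 3 fell in siMAD2L1. Over all tested genes 3.55% rose and 6.23% fell. The list median log2 fold change was 0.50, beside -0.08 over all tested genes. With library weights 21 rose and 4 fell, beside 1514 and 3346 of all 14790 genes. With no filter on low TPM 6 of the 35 were called, all higher, beside 68 higher and 103 lower of all 60589 genes. TNF, IL1A, PTGS2 and BCL2 lay under the filter. CCL20, a chemokine, measured 178, 125 and 93.5 TPM in siMAD2L1, against 28.1, 30.9 and 25.2 TPM in siControl. CSF3, a granulocyte growth factor, measured 98.2, 113 and 108 TPM in siMAD2L1, against 29.5, 35.8 and 28.8 TPM in siControl. IL1B, an inflammatory cytokine, measured 104, 83.6 and 61.3 TPM in siMAD2L1, against 25.3, 25.6 and 26.7 TPM in siControl. All 3 lay above siControl without overlap (log2 fold changes 2.15, 1.74 and 1.61; limma adjusted p = 0.00188, 0.000688 and 0.00258). CDKN1A, the cyclin-dependent kinase inhibitor p21, rose as well (1.31, limma adjusted p = 0.000688). The list was drawn up with earlier results of these libraries known, so its direction is not independent evidence.

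The 3 that fell, named after their values were seen, were CSF1 (45.3 ± 2.32 TPM in siMAD2L1 and 71.9 ± 4.95 TPM in siControl), PLAU (103 ± 9.99 and 169 ± 6.23 TPM) and CCL2 (8.64 ± 1.12 and 18.3 ± 0.901 TPM; SD, n = 3 each). They encode a macrophage growth factor, the urokinase protease and a monocyte chemokine. Among the 31, the 9-base core was present in 16, of which 5 were called, all higher (median 0.46). The shorter core without the longer was present in 10, of which 6 rose and 2 fell (median 0.80), and neither in 5, of which 2 rose and 1 fell (median 0.18). These groups are small and their difference was not tested.

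For comparison with the binding proteins' own sites, the next stretches come from 2 mRNAs that rose and 1 that fell; capitals mark the 9-base core, with overlapping copies run together, or the 7-base core where the longer one is absent.
IL1B (chr2:112829994-112830023, minus strand): gcttccctatTTATTTATTTATTtgtttgt
CXCL3 (chr4:74036772-74036801, minus strand): atgtcagttgTTATTTATTcaaattatctc
PLAU (chr10:73917408-73917437, plus strand): tgtacactgaaTATTTATatttcactattt
IL1B carries overlapping copies, while CXCL3 carries 1 copy, as ZFP36 does, and both mRNAs rose.

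**Figure D4:**
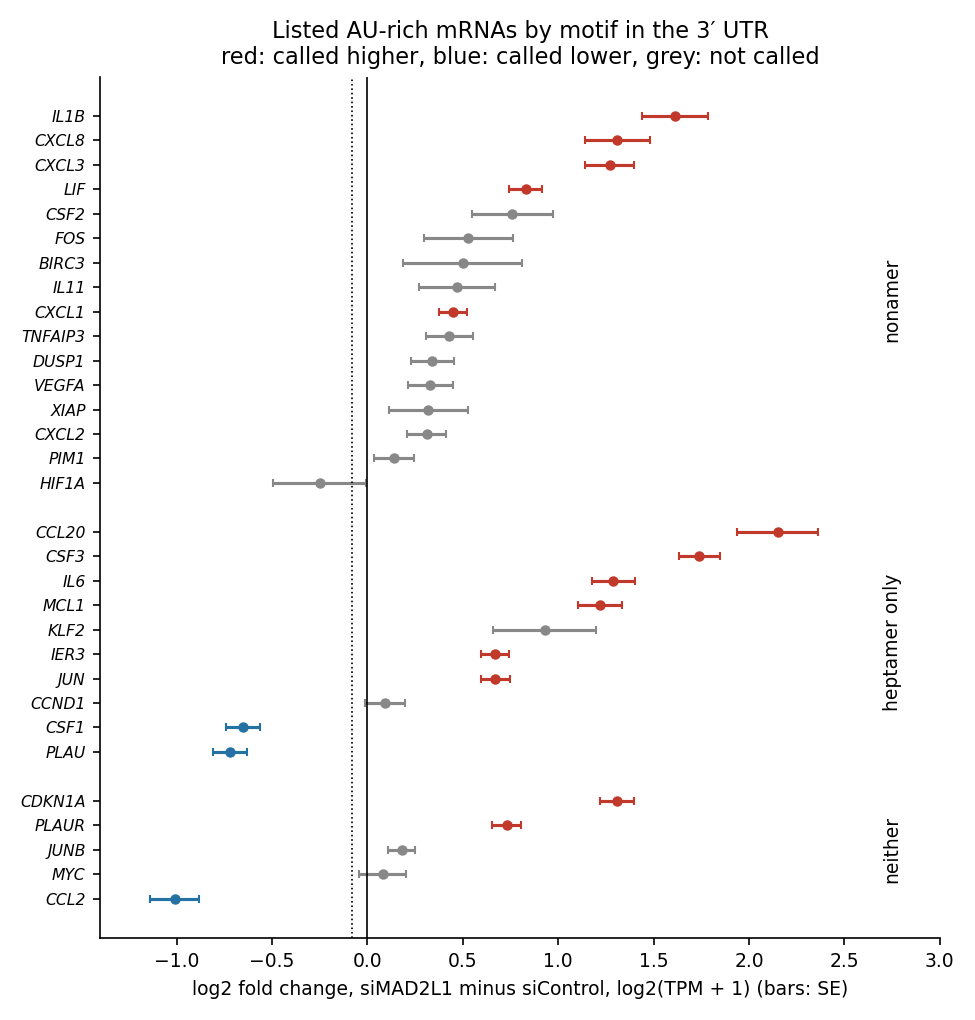
Log2 fold change with SE, siMAD2L1 minus siControl, of the 31 tested mRNAs listed as AU-rich, grouped by whether the 3′ UTR holds the 9-base core, the 7-base core only, or neither; the dotted line is the median of all tested genes. CCL20 (2.15) stands highest and CCL2 (-1.01) lowest.

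Of 14 listed ZC3H12A substrates 4 were listed at 0 in every library and 7 were tested. Of these 3 rose and 1 fell, beside 3.55% and 6.23% of all tested genes. The list median was 0.33, beside -0.08 over all tested genes, but this median is the value of ZC3H12A itself. IL6 measured 273, 216 and 222 TPM in siMAD2L1, against 96.7, 105 and 86.9 TPM in siControl (log2 fold change 1.29, limma adjusted p = 0.00136). CXCL3 measured 44.0, 40.8 and 43.6 TPM in siMAD2L1, against 18, 19.7 and 14.3 TPM in siControl (log2 fold change 1.27, limma adjusted p = 0.00206). CXCL1 rose (0.45, limma adjusted p = 0.0111) and BCL3, an NF-kB regulator, fell (-0.45, limma adjusted p = 0.0422). The limma adjusted p of CXCL1 was 0.0650 without siControl replicate 1 and 0.0526 without siControl replicate 3. BCL3 lost its call in 5 of the 6 fits that left out 1 library (highest adjusted p in limma 0.15). CXCL1, CXCL2 and CXCL3 are close paralogs, and how shared reads were assigned is not stated. The list shares IL6, CXCL1, CXCL2, CXCL3 and PTGS2 with the AU-rich mRNAs and includes ZC3H12A itself. The 3 that rose are thus counted in both lists and are not independent evidence.

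All tested genes holding the 9-base core, listed mRNAs among them, were set beside all genes with an annotated 3′ UTR, themselves included. Of 1096 tested genes with at least 1 copy, 4.84% rose and 3.83% fell, beside 3.96% and 6.75% of all 11904, and the median log2 fold changes were -0.01 and -0.06. Of the 10808 without a copy 3.87% rose and 7.05% fell, at a median of -0.07. With 4 or more copies (39 genes) 1 rose and 4 fell. The siMAD2L1 libraries differed among themselves. The median difference from siControl of the 1096 genes was 0.23 in replicate 1, -0.18 in replicate 2 and -0.07 in replicate 3. UTR length moved with this. Among the 3965 genes with the longest 3′ UTRs (2113 bases or more) these medians were 0.29, -0.20 and -0.05 for the 725 with a core and 0.19, -0.18 and -0.08 for the 3240 without one. The part of UTR length was not tested.

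**Figure D5:**
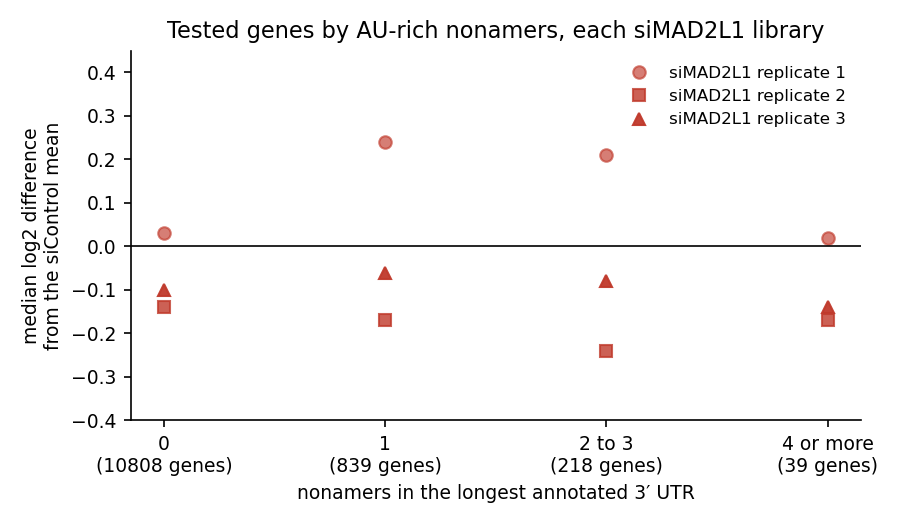
Median log2 difference from the siControl mean, log2(TPM + 1), of tested genes by copies of the 9-base core in the longest annotated 3′ UTR, one point per siMAD2L1 library. Replicate 1 lies at 0.24 and replicate 2 at -0.17 for genes with 1 copy.

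Among genes with short 3′ UTRs (up to 781 bases), 94 held the 9-base core, of which 10 rose and 5 fell (10.6% and 5.32%), beside 3.88% and 8.59% of all 3969 genes with short UTRs. The 10 were ZFP36, IL1B, CXCL1, CXCL3, GDF15, IGFBP1, PPP2R5B, HK1, NAB2 and PER1, and the 5 were YBX3, PLK2, TWIST1, GTF3C1 and FAM216A, all named after their values were seen. Of the 10, ZFP36 is a member already called higher, and IL1B, CXCL1 and CXCL3 are among the listed AU-rich mRNAs. The share of risers is therefore not independent of the results above. In the middle bin 4.69% of 277 such genes rose and 6.5% fell, and in the long bin 4.14% and 2.62% of 725. The higher share of risers in the short bin was not tested against the others.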

How the data were processed

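RNA-seq of 3 siMAD2L1 and 3 siControl libraries of SNU449 cells was used. The deposited values are TPM, 1 column per library, which the authors made; fastp, HISAT2, DESeq2 1.16.1 and hg38 are named without their roles, per the submitters' processing notes. Which counter, annotation and strand setting were used is not given in the sources used here. Columns were matched to titles by siRNA and number. Genes averaging 1 TPM or more over the 6 libraries were kept. On log2(TPM + 1), limma 3.58.1 with an intensity trend (R 4.3.3) compared the groups, with Benjamini-Hochberg adjustment over 14790 genes and a threshold of 0.05. Fold changes are on the log2(TPM + 1) scale and understate low genes. Single members were also compared by exact two-sided permutation. The longest 3′ UTR of each gene came from GENCODE 29 (GRCh38, the build the notes name hg38). Named genes are the 9 members, MAD2L1, up to 4 called genes per list with the largest change, and the 3 nearest profiles of each called member; others are marked as named after their values were seen or are given to describe a list. Members and lists were chosen with earlier results of these data known. The alternatives were other pseudocounts, filters, scalings, weights, a replicate block and left-out libraries. One list of cell type markers is not reported here.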

Additional observations from a re-analysis of the deposited data

How the results depend on the processing

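The 3 calls among the binding proteins became 6 with library weights, 0 with no filter on low TPM (limma; 7 at an unadjusted p under 0.05, as with the filter), and 1 to 4 with a library left out (1 without siControl replicate 1 or 3 and without siMAD2L1 replicate 3). Over all genes 1446 calls became 4860 with library weights, 171 with no filter, 868 with a replicate block and 356 to 2410 when 1 library was dropped, lowest on dropping siControl replicate 1 and highest on dropping siMAD2L1 replicate 1; each of the 6 moved the count by over 1.5 times. With no filter ZFP36 kept its log2 fold change of 0.75 at a limma adjusted p of 0.0733, over all 60589 genes. Same-numbered libraries did not deviate together (correlations of deviations 0.0190, 0.00898 and 0.0631), so the number was not taken as pairing; with the replicate block 2 members were called, and TIA1 had an adjusted p of 0.0510 in limma. Members that were not called changed sign as follows: TIAL1 to 0.01 with upper-quartile scaling, 0.02 with a length trend removed, 0.0043 without siMAD2L1 replicate 2, 0.10 without siControl replicate 1 and 0.09 in siMAD2L1 replicate 1 alone. With 1 library left out TIAL1 ran from -0.17 to 0.10. ZFP36L2 turned to 0.03 in siMAD2L1 replicate 1 alone and to 0.0045 after quantile normalization; it was not tested with a filter at 5 TPM. The other 7 members kept their direction in all 17 alternatives. The median of the AU-rich mRNAs ran from 0.42 to 0.67 over the alternatives. Genes with at least 2 copies of the 9-base core had a median of -0.06, and 0.01 with the 7-base core. The causes were not tested, and without read counts the limit set by depth is unknown.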
